A study of Mus musculus with 2 samples.

Results

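The immediate early genes *Fos*, *Fosb*, *Jun*, *Junb*, *Atf3*, *Egr1*, *Npas4*, *Ier2*, *Dusp1* and *Arc* were described in single neurons of the mouse spiral ganglion, whose axons carry sound signals from the cochlea to the brain. They were chosen by symbol. All 10 are among the 14425 genes of the deposited expression table. The data are 2 libraries, 1 per group, of cells sorted for the tdTomato reporter Ai14 after enzymatic dissociation with collagenase and papain, and read with a 10x Genomics 3′ assay. The control library, iCON (Runx1-CreER/+; Ai14/+), holds 462 cells, and the iCKO library (Runx1-CreER/Runx1F; Ai14/+) holds 407. Mice of both groups carried Runx1-CreER, a tamoxifen-inducible Cre, received tamoxifen at postnatal day 1 and were taken, both sexes together, at postnatal days 27 to 29. How many animals went into a library is not stated in the sources used here. Only cells in which Cre had opened the reporter were sorted, so both libraries hold Cre-exposed cells.

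Immediate early genes are transcribed within minutes of a stimulus, without new protein synthesis, through transcription factors such as CREB and SRF that are already present in the cell. Calcium entry during firing is one such stimulus in neurons. Injury, stress kinases and the handling of tissue during dissociation are others, so the family is read as a record of recent activity and, in dissociated cells, of the preparation itself. FOS and JUN family proteins pair to form AP-1, EGR1 is a zinc finger factor, NPAS4 is a neuronal factor known for its dependence on calcium, and DUSP1 is a phosphatase that switches MAP kinases off.

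The libraries differed in depth and in composition, and these differences run in parallel with the groups, so their part in a difference between the libraries was not tested except where a subset is given. A cell held a median of 49726 UMIs (unique molecular identifiers, 1 per captured RNA molecule) in iCON and 33602 in iCKO, ranging from 16168 to 93322 and from 18582 to 79487. All 6 neuronal markers were found together in 97.0% and 98.8% of cells, as the label of neurons requires. Their levels differed between the libraries, with a median log2 ratio of 0.28. *Nefh* (0.71), *Slc17a7* (0.58), *Nefm* (0.49) and *Nefl* (0.07) were higher in iCKO, and *Snap25* (-0.20) and *Tubb3* (-0.08) lower, all 6 beyond counting error. Of the 6, 2 lay at or above 0.5, where 1.19% of all genes did. Their median correlation over cells with the 9 early genes without *Jun* was -0.10 in iCON and -0.14 in iCKO. Of the marker lists for other cells, 1 of 7 myeloid genes and 1 of 4 endothelial genes are listed. Some markers of other cells were lower in iCKO, as were *Atf3* and *Egr1* among the early genes. Of 5 genes of satellite and Schwann glia, *Apoe* (log2 ratio -2.28) and *Fabp7* (-1.85) lay at or below -0.5, where 2.88% of all genes did. *S100b* was higher in iCKO (0.15, interval of the UMI ratio 0.088 to 0.14), and the summed level of the list was 12.8 and 13.0 UMIs per 10000. Of 4 type II neuron genes tested, *Th* (-2.35), *Plk5* (-1.32) and *Gata3* (-0.60) lay at or below -0.5. *Smad3* was higher (0.44, 19 and 39 UMIs, interval 0.89 to 2.59). A gene was tested when found in at least 5% of the cells of a library. *Th* (5.63% of iCON and 0.983% of iCKO cells) and *Plk5* (6.49% and 2.21%) met this only through iCON, where they were high. Their place past the line was therefore not independent of that rule. *Smad3* (3.90% and 9.34%) met it only through iCKO. Of 5 fibroblast genes all are listed, 2 were tested and 0 passed. *Col1a2*, a collagen gene, was found in 73.2% and 55.8% of cells at 0.954 and 0.721 UMIs per 10000 (log2 ratio -0.38, interval -0.41 to -0.19). In all, 28 iCON and 10 iCKO cells held at least 3 type II markers. Without those cells the log2 ratio of *Egr1* was -0.72, against -0.65 with them, and that of *Atf3* also stayed below -0.5. Myelin genes were plentiful, at a summed mean of 36.7 UMIs per 10000 in iCON and 19.0 in iCKO, and cells under 3 per 10000 made up 22.5% and 37.8%. Cells with *Xist* and no Y-linked RNA made up 54.5% of iCON and 78.4% of iCKO. *Runx1* itself had a mean of 0.867 UMIs per 10000 in iCON and 1.12 in the library labelled iCKO. A 3′ count does not see which exons a transcript contains, so this neither checks nor contradicts the genotype. Cells holding at least 10 *Lypd1* UMIs per 10000 were called Lypd1-high (180 iCON and 126 iCKO cells), the remaining cells with at least 50 *Calb2* UMIs per 10000 Calb2-high (154 and 256), and the rest other (128 and 25). *Lypd1*, *Calb2* and *Calb1* are known as markers that divide the type I neurons of this ganglion.

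Sequence just upstream of the start site was available from RefSeq for 7 of the 10 genes (build GRCm38.p6), and 5 of these are shown, the 4 that hold the motif marked below and *Jun*, the gene found in nearly every cell. Each line gives the 250 bases before the annotated start, 5′ to 3′ on the gene's own strand, for *Fos* at chr12:85473640-85473889 on the plus strand, *Npas4* at chr19:4989972-4990221, *Dusp1* at chr17:26508473-26508722, *Atf3* at chr1:191183334-191183583 and *Jun* at chr4:95052223-95052472, the last 4 on the minus strand. Capitals mark TGACGT, the core of the cAMP response element to which CREB and ATF proteins bind, read on either strand (ACGTCA is the same letters on the other strand). In *Dusp1* the capitals also mark the full palindrome TGACGTCA, which holds the core on both strands.
Fos: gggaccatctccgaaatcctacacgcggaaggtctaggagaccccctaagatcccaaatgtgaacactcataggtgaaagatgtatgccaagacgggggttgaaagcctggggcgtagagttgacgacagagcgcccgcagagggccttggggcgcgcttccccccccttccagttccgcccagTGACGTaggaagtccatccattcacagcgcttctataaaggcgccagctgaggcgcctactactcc
Npas4: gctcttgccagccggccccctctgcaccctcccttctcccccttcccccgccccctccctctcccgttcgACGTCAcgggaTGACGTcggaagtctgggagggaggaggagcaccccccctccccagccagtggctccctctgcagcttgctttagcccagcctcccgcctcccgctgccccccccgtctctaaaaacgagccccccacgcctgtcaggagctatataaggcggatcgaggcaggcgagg
Dusp1: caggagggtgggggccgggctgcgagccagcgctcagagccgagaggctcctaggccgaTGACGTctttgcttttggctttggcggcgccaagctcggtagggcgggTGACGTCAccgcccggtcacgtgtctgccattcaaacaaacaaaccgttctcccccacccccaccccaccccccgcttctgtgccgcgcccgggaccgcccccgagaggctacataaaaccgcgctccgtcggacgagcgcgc
Atf3: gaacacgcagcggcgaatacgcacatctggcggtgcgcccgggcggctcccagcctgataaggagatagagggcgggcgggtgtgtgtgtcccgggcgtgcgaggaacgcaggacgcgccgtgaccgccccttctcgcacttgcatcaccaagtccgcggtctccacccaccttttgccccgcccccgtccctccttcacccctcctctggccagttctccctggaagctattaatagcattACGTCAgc
Jun: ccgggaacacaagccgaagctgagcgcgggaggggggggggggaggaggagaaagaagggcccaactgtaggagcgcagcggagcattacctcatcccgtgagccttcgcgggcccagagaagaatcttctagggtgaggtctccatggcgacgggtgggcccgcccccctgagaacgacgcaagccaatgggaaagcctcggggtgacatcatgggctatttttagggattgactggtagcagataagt

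In windows of 300 bases, from 250 before to 50 after the start, the core was present in 4 of the 7 genes, and in 7.51% of 32851 such windows over all genes. *Fos* had it at -66 to -61 from the start base, *Atf3* at -8 to -3, *Npas4* at -180 to -175 and at -169 to -164, and *Dusp1* at -191 to -186 and within the palindrome at -143 to -136. The full palindrome was found in 1.79% of all windows. The AP-1 site TGANTCA (7.81% of all windows) and the CArG box, the SRF site (1.63%), had no match in these 7 windows. Other forms of these sites and sequence outside the windows were not searched, and *Egr1*, *Ier2* and *Arc* were not read. A missing match therefore does not show that a gene lacks such a site. A match describes letters in a window and was not tied to any factor or level measured here.

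*Jun*, an AP-1 subunit, was the most frequently counted of the 10 genes and was found in nearly every cell. Its mean was 2.36 UMIs per 10000 in iCON (SD over cells 1.24, median 2.24, highest cell 10.4) and 2.01 in iCKO (SD 1.20, median 1.83, highest cell 7.96). It had a UMI in 99.1% and 99.3% of cells, and made up 74.5% and 80.2% of the UMIs of all 10 genes. Counts at the 3′ end do not scale with transcript length, so they can be set side by side, though capture may differ between genes. Any sum over the 10 is therefore mostly a measure of *Jun*, and a sum over the other 9 is given beside it. The log2 ratio of iCKO over iCON was -0.22, computed from means over cells with 0.05 added to each. The 95% interval of the ratio of summed UMIs was -0.34 to -0.21. In cells with Y-linked RNA only the direction turned, to 0.037 (interval -0.073 to 0.19). These intervals, like all intervals here, cover counting error only. With 1 library per group no test was possible, and differences between animals or preparations are not covered. Genes with UMIs in few cells vary more than such an interval allows.

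The other AP-1 genes were sparse. *Fos* had a mean of 0.0654 UMIs per 10000 in iCON and 0.0621 in iCKO, with a UMI in 57 and 49 cells and a highest cell of 2.61 and 2.16. Over all cells the libraries did not differ in *Fos* beyond counting error (log2 ratio -0.04, interval of the UMI ratio -0.45 to 0.36). *Junb*, which pairs with FOS proteins as *Jun* does, had means of 0.0616 and 0.0445, with UMIs in 89 and 56 cells and an interval of -0.84 to 0.07. *Fosb* had 33 UMIs in 16 iCON cells and 5 UMIs in 3 iCKO cells. Its ratio of summed UMIs had an interval of -3.76 to -0.68, but 60.6% of the iCON UMIs came from 5 cells.

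*Atf3*, a stress-responsive factor that is also known as a marker of injured sensory neurons, differed most between the libraries among the 8 genes that had a UMI in at least 5% of the cells of a library. Its mean was 0.263 UMIs per 10000 in iCON and 0.115 in iCKO, with medians of 0.163 and 0 and highest cells of 3.95 and 1.68. It was found in 236 of 462 iCON cells and 100 of 407 iCKO cells. Both libraries contain cells with and without it, and their ranges overlap. The log2 ratio was -0.92 (interval of the UMI ratio -1.46 to -0.93). With 20000 UMIs drawn at random from each cell (thinning), so that depth was equal, *Atf3* was present in 32.8% of 454 iCON cells and 18.3% of 405 iCKO cells, a difference of -14.5 percentage points (interval -20.4 to -8.59).

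*Egr1* had a mean of 0.162 UMIs per 10000 in iCON and 0.0847 in iCKO. It was found in 91 and 57 cells, with highest cells of 2.68 and 2.52, so single cells reached about the same top level in both libraries. The log2 ratio was -0.65 (interval of the UMI ratio -1.26 to -0.64). In thinned cells its share was 14.5% against 10.1%, and the interval of that difference, -8.94 to 0.17 percentage points, includes 0. *Npas4* had 47 UMIs in 15 iCON cells, 14 of them in 1 cell, and 5 UMIs in 3 iCKO cells. Its interval was -4.24 to -1.23. The 5 highest cells held 66.0% of the iCON UMIs.

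*Ier2*, a nuclear protein gene of the early response, had means of 0.109 and 0.0679 UMIs per 10000 (log2 ratio -0.43, interval of the UMI ratio -1.04 to -0.31), and shares in thinned cells of 16.7% and 10.1%. *Dusp1* had means of 0.117 and 0.0977 (log2 ratio -0.17, interval -0.62 to 0.02), and shares of 17.2% and 13.6%. *Arc*, a synaptic gene of the early response, had low means of 0.0157 and 0.0158 and UMIs in 31 and 19 cells, with an interval of -0.75 to 0.92 that leaves room for a difference either way. These libraries contain no cell type that should lack the family, so how many of such scattered single UMIs come from free RNA was not measured.

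**Figure D1:**
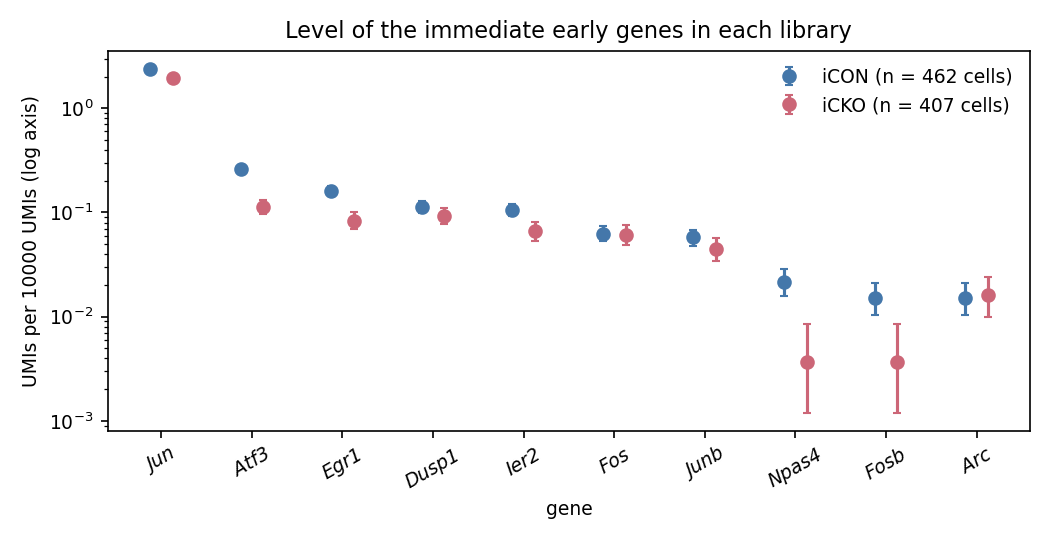
The level of each gene in the 2 libraries, as its summed UMIs per 10000 summed UMIs on a log axis, iCON (462 cells) beside iCKO (407 cells); the whiskers show the exact 95% Poisson interval. *Jun* lies far above the other 9 genes, and *Atf3*, *Egr1*, *Npas4* and *Fosb* show the widest gaps between libraries.

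Of the 8 genes tested for size, 2 (*Egr1* and *Atf3*) had a log2 ratio at or below -0.5, and 0 lay at or above 0.5. Without the 5% of cells with the highest summed level *Egr1* stood at -0.489, short of that line, and *Atf3* at -0.75. With a pseudocount of 0.5 in place of 0.05 neither reached it (-0.18 and -0.31). Over all 10 genes 5 passed with a pseudocount of 0.01 and 4 in cells with *Xist* only. Both counts include *Npas4*, not tested for size, and *Ier2* (-0.61 and -0.65). *Ier2* also passed when thinned to 20000 UMIs (-0.53) and in cells with low myelin RNA (-0.60), with 3 genes passing in each. The share of all genes passing was not computed under these settings. Of all 11810 genes detected in at least 5% of the cells of a library, 2.88% passed the lower line and 1.19% the upper. These shares are for all cells and a pseudocount of 0.05. A counting interval wholly below 0 was found for 4 of the 8 (*Egr1*, *Jun*, *Ier2* and *Atf3*) and for 24.6% of all genes, and one wholly above 0 for 0 of the 8 and 18.5% of all genes. The median log2 ratio was -0.23 over the 8 and -0.04 over all genes. The sum of the 9 genes without *Jun* was 0.830 UMIs per 10000 in the control library against 0.495, or -0.69 as a log2 ratio. Much of that sum came from *Atf3* and *Egr1*, with 571 and 354 of 1785 UMIs in iCON. Giving Lypd1-high, Calb2-high and other cells equal weight moved *Egr1* to -0.21, *Fos* to 0.23 and *Dusp1* to 0.42, and left *Atf3* at -0.80. Under equal weights *Egr1* was thus no longer past -0.5, and *Fos* and *Dusp1* changed sign. These weights lean on the 25 iCKO cells of the other class, where *Dusp1* had 23 UMIs and its interval (-0.11 to 1.27) includes 0.

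Without *Jun*, 31 of 36 gene pairs in iCON and 22 of 36 in iCKO were found in the same cell more often than their separate frequencies would give. In thinned cells, 122 of 454 iCON cells (26.9%) and 70 of 405 iCKO cells (17.3%) held at least 3 of the 10 genes, a difference of -9.59 percentage points (interval -15.2 to -3.88). The interval includes 0 when 2 UMIs of a gene are required (-2.54 points, -5.43 to 0.34) and for at least 5 of the 10 genes (-2.62 points, -5.31 to 0.023). Without *Jun*, at least 5 of the 9 were found in 13 iCON cells and 1 iCKO cell, and 2 iCON cells held 8 of the 9. In cells with low myelin RNA, the share with at least 3 genes was 23.0% in iCON and 12.3% in iCKO, and in cells with high myelin RNA it was 28.0% and 20.3%. Among cells with *Xist* only it was 32.0% and 18.6%, and among cells with Y-linked RNA only it was 19.1% and 11.1%. The iCKO share was the lower one in these 4 subsets, and for the cells with Y-linked RNA only, the interval of the difference (-16.5 to 2.36) includes 0. By neuron class the gap was uneven. The share was 29.8% and 29.6% among Lypd1-high cells, 19.1% and 10.9% among Calb2-high cells and 32.3% and 20.8% among other cells. At intermediate *Calb2* it was 34.6% and 33.3%, and among Calb2-high cells without *Calb1* it was 11.8% and 14.4%.

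**Figure D2:**
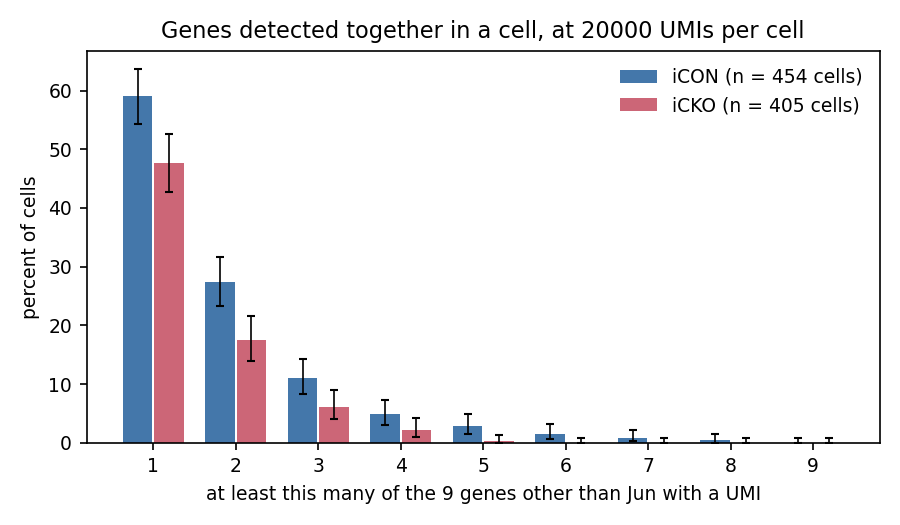
Percentage of cells, each thinned to 20000 UMIs, in which at least the given number of the 9 genes without *Jun* had a UMI, for iCON (454 cells) and iCKO (405 cells); whiskers are exact 95% binomial intervals. The iCON bars stand above the iCKO bars from 1 to 8 genes, and at least 5 genes were found in 13 cells against 1.

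Over the 36 pairs of the 9 genes, the thinned iCON cells gave 415 joint detections where the product of the separate shares would give 217.7, a ratio of 1.91, and 31 pairs exceeded their product. In iCKO there were 152 against 92.4, a ratio of 1.65, and 22 pairs exceeded it. No joint cell was found for 1 pair in iCON and 5 pairs in iCKO. The share of pairs above their product was not computed for other genes, so whether these counts stand out was not tested. *Fos* and *Egr1* exceeded their product in both libraries. Both were found in 18 iCON cells against a product of 5.67 and in 15 iCKO cells against 3.54, and their Spearman correlations over cells were 0.35 and 0.34. *Egr1* and *Dusp1* met in 27 iCON cells against 11.3 and in 17 iCKO cells against 5.57. *Atf3* and *Fos* met about as often as their product in both libraries (13 cells against 12.8, and 6 against 6.40). It met *Egr1* in 36 cells against 21.7 and in 15 against 7.49, and *Dusp1* in 36 against 25.6 and in 17 against 10.0. The level of *Atf3* correlated with that of *Jun* at 0.33 and 0.18, with *Egr1* at 0.25 and 0.16 and with *Fos* at 0.12 and -0.00. These correlations are descriptions over cells that share a library and its depth.

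The few iCON cells with *Npas4* held many of the other genes. All 15 iCON cells with *Npas4* also held *Egr1*, which was found in 17.0% of the other 447 cells. *Dusp1* was in 13 of them (86.7%, against 26.6% of the others), *Fos* in 10 (66.7% against 10.5%) and *Fosb* in 7 (46.7% against 2.01%). *Atf3* was enriched less, at 80.0% against 50.1%. Of the 15 cells, 6 were Lypd1-high, 2 Calb2-high and 7 other, 13 held *Calb1*, and 12 held *Xist*. Their median depth was 48446 UMIs, close to that of the library, and their median heat shock sum was 93.7 UMIs per 10000 against 83.2 over all iCON cells. The 3 iCKO cells with *Npas4* all held *Egr1* and *Dusp1*.

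*Arc* was the least tied to the others. Its level correlated with the sum of the 8 other genes without *Jun* at -0.01 in iCON and 0.03 in iCKO, although *Egr1* was in 10 of 31 iCON cells with *Arc* (32.3%) against 18.8% of those without. The matching values were 0.40 and 0.32 for *Egr1*, 0.31 and 0.25 for *Dusp1*, 0.29 and 0.21 for *Fos* and 0.21 and 0.14 for *Atf3*. Of the 7 genes found in at least 5% of the cells of each library, 6 had a correlation of at least 0.1 in both libraries, and of 11150 genes outside the 9, 1.79% reached this with the sum of the 9. *Junb* was the exception, at 0.20 and 0.06. The sum of the 9 correlated with total UMIs of a cell at -0.05 and -0.07, and *Jun* at 0.08 and -0.20.

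**Figure D3:**
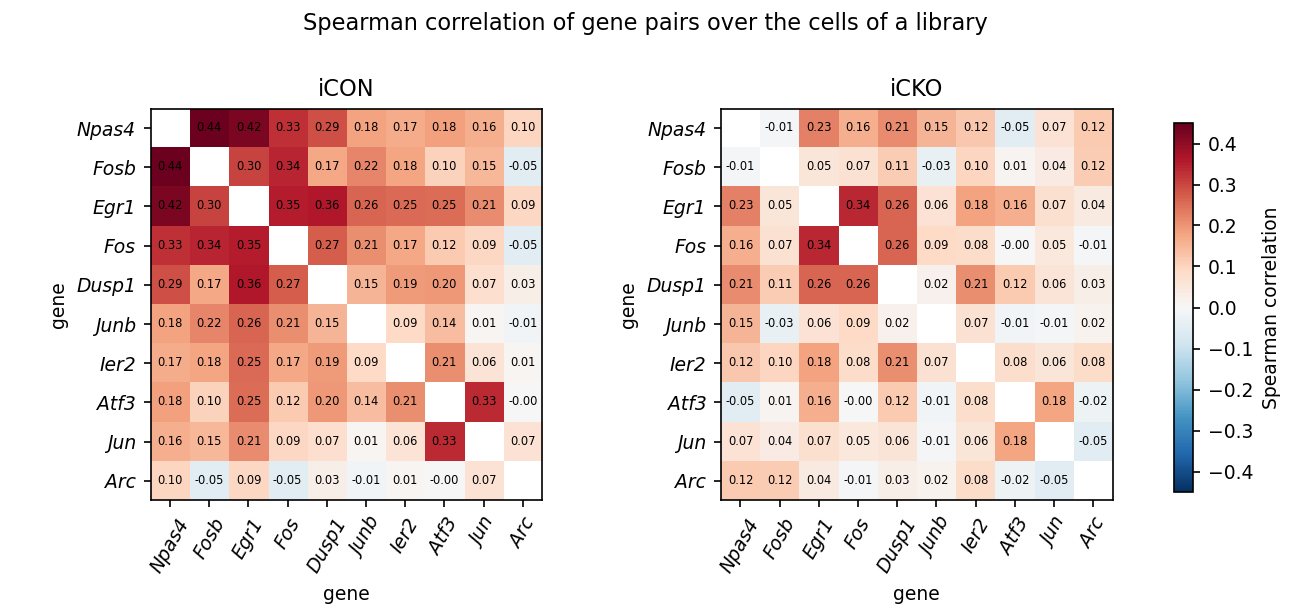
Spearman correlation over cells between the levels (UMIs per 10000) of each pair of the 10 genes, in 462 iCON cells and in 407 iCKO cells. In iCON the highest value is 0.44, for *Fosb* and *Npas4*, followed by 0.42 for *Egr1* and *Npas4*, while the highest value of *Arc* with any other gene in either library is 0.12.

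By neuron class, the libraries differed in *Fos* in opposite directions. The classes were cut by level and are not alike in the libraries: Lypd1-high cells had a median *Calb2* of 1.81 UMIs per 10000 in iCON and 43.2 in iCKO, a median *Lypd1* of 42.2 and 31.7, and *Xist* only in 53.9% and 81.7%. Among Lypd1-high cells its mean was 0.0371 UMIs per 10000 in iCON and, at a log2 ratio of 0.99, 0.123 in the iCKO library (34 and 50 UMIs, interval of the UMI ratio 0.96 to 2.30). Among Calb2-high cells it was 0.0651 and 0.0265, a log2 ratio of -0.59 (44 and 23 UMIs, interval -1.90 to -0.35). The difference between the classes was not tested. The Lypd1-high gap was 1.26 among cells with high myelin RNA and 0.12 among those with low myelin RNA, where 7 and 8 UMIs were counted, and it was 0.62 without the 5% of cells with the highest summed level. The Calb2-high gap was -0.59 at both myelin levels, and -0.43 without the 5% of cells with the highest summed level, where the interval (-1.62 to 0.0035) includes 0. In cells with Y-linked RNA only the gaps were 0.66 and -0.60, with intervals that include 0. The parts of myelin RNA and of a few strong cells in the Lypd1-high gap were not tested further.

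*Egr1* did not differ beyond counting error among Lypd1-high cells (means 0.190 and 0.188, interval -0.36 to 0.45). That even value joins a log2 ratio of -0.85 in Lypd1-high cells with low myelin RNA (0.368 and 0.182, interval -1.62 to -0.097) and of 0.23 in those with high myelin RNA. *Egr1* was lower in iCKO among Calb2-high cells (0.0809 and 0.0231, log2 ratio -0.84, interval -2.59 to -1.03). *Atf3* was lower in iCKO in each class, with means of 0.404 and 0.215 among Lypd1-high cells, 0.116 and 0.0680 among Calb2-high cells and 0.241 and 0.0917 among other cells, and its 3 intervals all lay below 0. In cells with Y-linked RNA only, the gap was -0.56 among Lypd1-high cells (interval -1.60 to 0.11) and -0.052 among Calb2-high cells (-0.72 to 1.26). Without the 5% of cells with the highest summed level, the Calb2-high interval (-1.08 to 0.013) includes 0, as it does in cells with low myelin RNA (-1.30 to 0.62). Among Lypd1-high cells the *Atf3* ratio was -1.69 at low myelin RNA and -0.497, just short of -0.5, at high myelin RNA. *Jun* was also lower in iCKO in each class, by log2 ratios of -0.14, -0.26 and -0.10. The *Jun* interval includes 0 in Lypd1-high cells with high myelin RNA (-0.032, -0.18 to 0.072) and in Calb2-high cells with low myelin RNA (-0.086, -0.28 to 0.060). In cells with Y-linked RNA only *Jun* was higher, by 0.34 among Lypd1-high cells (interval 0.12 to 0.57) and 0.053 among Calb2-high cells. *Dusp1* was near even in the first pair of classes (0.17 and -0.10, intervals including 0) and was 0.194 and 0.357 among other cells, where iCKO has 25 cells. Among Calb2-high cells with Y-linked RNA only it stood at -0.77, from 17 and 1 UMIs (interval -8.33 to -0.27). Past a log2 ratio of -0.5 or lower lay 1 of 8 genes among Lypd1-high cells (3.27% of all genes) and 2 of 8 among Calb2-high cells (1.66%). At 0.5 or higher lay 1 of 8 (2.02%) and 0 of 8 (1.19%). Among other cells 1 of 8 lay at or below -0.5 (*Atf3*, 10.3% of all genes) and 1 of 8 at or above 0.5 (*Dusp1*, 6.86%).

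**Figure D4:**
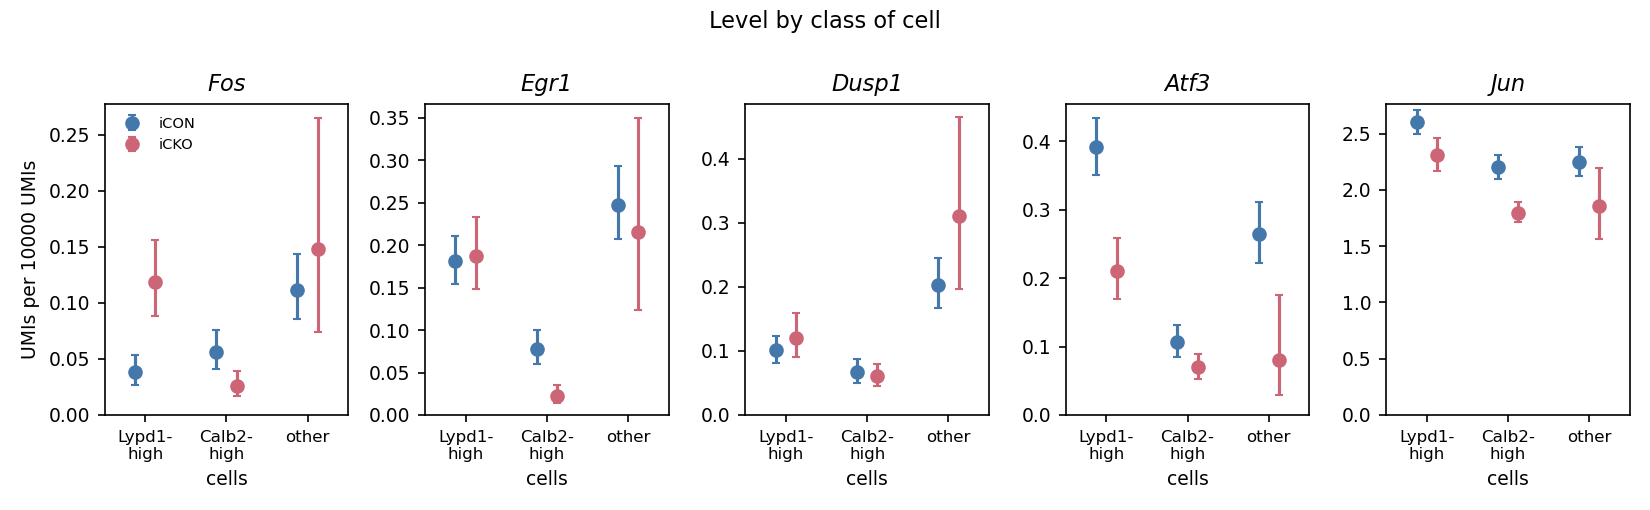
Level of *Fos*, *Egr1*, *Dusp1*, *Atf3* and *Jun* by neuron class in each library, as summed UMIs per 10000 summed UMIs with exact 95% Poisson intervals. *Fos* is higher in iCKO among Lypd1-high cells and lower among Calb2-high cells, and *Atf3* is lower in iCKO in each of the 3 classes.

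Within a library, *Atf3* followed *Lypd1*. Its mean was 0.404 UMIs per 10000 in cells with at least 10 *Lypd1* UMIs per 10000 and 0.158 in cells with under 1 in iCON (log2 ratio 1.12), and 0.215 and 0.0669 in iCKO (1.18). *Egr1* was also higher in *Lypd1*-rich cells, by 0.52 in iCON and 1.45 in iCKO. *Fos* was lower there in iCON (0.0371 against 0.0821, log2 ratio -0.60, interval -1.61 to -0.42) and higher in iCKO (0.123 against 0.0345, log2 ratio 1.03, interval 1.08 to 2.45), and the difference between these ratios was not tested. *Arc* had 6 UMIs in *Lypd1*-rich and 24 in *Lypd1*-poor cells of iCON. At or above 0.5 lay 2 of 8 genes in iCON (2.83% of all genes) and 3 of 8 in iCKO (2.92%), and at or below -0.5 lay 1 of 8 (3.97%) and 0 of 8 (2.7%). The 26 iCON cells with intermediate *Lypd1* had the highest *Egr1* of the 3 bins, 0.404, while the 20 such iCKO cells had 0.0512.

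By *Calb2*, which encodes calretinin, 3 genes lay at or below a log2 ratio of -0.5 in both libraries between cells with at least 50 UMIs per 10000 and cells with under 10. *Atf3* had log2 ratios of -1.22 in iCON and -1.12 in iCKO, *Egr1* -0.65 and -0.77, and *Dusp1* -0.55 and -1.45. These are all 3 of the 8 genes at or below -0.5 in iCON, where 6.76% of all genes passed that line. *Jun* was lower in both, at -0.12 in iCON (interval -0.27 to -0.085) and -0.51 in iCKO (-0.64 to -0.29), so that 4 of 8 passed in iCKO, where 10.3% of all genes did. *Ier2* stood at -0.18 and -0.45, with intervals that include 0. The sum of all 10 genes gave -0.26 in iCON and -0.63 in iCKO, and the sum without *Jun* -0.72 and -1.04. In iCON the sum of all 10 was 0.014 among cells with *Xist* only and -0.60 among those with Y-linked RNA only. At or above 0.5 lay 0 of 8 in iCON (2.94%) and 1 of 8 in iCKO (5.5%), *Junb*, which rested on 1 UMI in the 38 low-*Calb2* cells. Cells with intermediate *Calb2* stood highest for *Egr1* (0.270 in iCON and 0.256 in iCKO) and *Fos* (0.101 and 0.141). At this intermediate level the libraries did not differ beyond counting error in either gene, with intervals of -0.52 to 0.40 and -0.09 to 1.23. These intermediate cells were not alike in the libraries. Their median *Lypd1* was 0.397 UMIs per 10000 in iCON and 29.2 in iCKO, and *Xist* only was found in 45.9% and 80.6%. The *Calb2* and *Lypd1* bins overlap: median *Lypd1* was 41.8 UMIs per 10000 in low-*Calb2* cells of both libraries and 0 in high-*Calb2* cells. The *Atf3* and *Egr1* results by *Lypd1* and by *Calb2* are thus not separate observations.

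**Figure D5:**
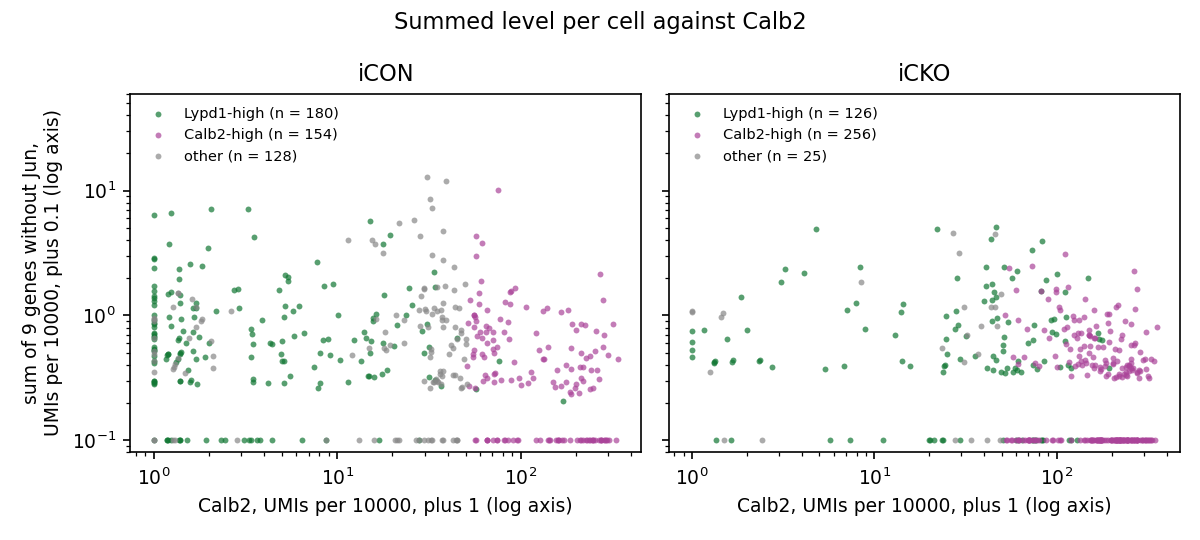
Summed level of the 9 genes without *Jun* in each cell against its *Calb2* level, both in UMIs per 10000 on log axes with a small constant added, for 462 iCON and 407 iCKO cells coloured by class; cells without any UMI of the 9 form the bottom row. The sum without *Jun* tended to be lower in cells with more *Calb2*, with wide scatter; the Spearman correlations are -0.25 in iCON and -0.35 in iCKO, as descriptions over cells.

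*Calb1*, which encodes calbindin, went with different shares of cells holding several genes. Among cells with at least 1 *Calb1* UMI per 10000, at least 3 of the 10 genes were found in 40.0% of 60 thinned iCON cells (interval 27.6 to 53.5) and 13.1% of 130 iCKO cells (7.81 to 20.1). Among cells without *Calb1* the shares were 23.9% and 20.5%. The cells that were Calb2-high and also high in *Calb1* gave 11 of 22 iCON cells and 8 of 102 iCKO cells (7.84%). Median *Calb2* in these was 63.1 and 171 UMIs per 10000, and *Xist* only was found in 22.7% and 74.5% of them. Among *Calb1*-high cells of the other class, the share was 12 of 36 in iCON and 2 of 6 in iCKO (33.3% each). Among Lypd1-high cells that were also *Calb1*-high it was 1 of 2 and 7 of 22. *Egr1* was the gene at or above a log2 ratio of 0.5 between *Calb1*-high and *Calb1*-free cells in iCON (0.94, 1 of 8 genes, 1.13% of all genes), and it stood at -0.13 in iCKO, where 0 of 8 and 0.432% of all genes passed. *Fos* was higher with *Calb1* in both libraries, by 0.41 (interval 0.13 to 1.58) and 0.50 (0.28 to 1.90), and *Fosb* stood at 0.62 and 0.31, the latter from 5 and 0 UMIs. *Atf3* was lower with *Calb1* in both, at -0.38 and -1.06. It was the 1 gene of 8 at or below -0.5 in iCKO, where 2.14% of all genes passed, against 0 of 8 and 3.73% in iCON. The *Calb1* and *Lypd1* bins overlap. In iCON 153 of 293 *Calb1*-free and 3 of 62 *Calb1*-high cells were Lypd1-high, and in iCKO 68 of 177 and 22 of 131. The *Atf3* results by *Calb1* and by *Lypd1* are thus not separate observations. *Fosb* and *Npas4* were concentrated in *Calb1*-containing iCON cells, since 3 of 33 and 4 of 47 UMIs fell in the 293 iCON cells without *Calb1*.

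Most of the 10 genes had higher means in cells with *Xist*, though the cells differed in more than sex-linked RNA. Of the 10 genes, 9 had a higher mean in the 252 iCON cells with *Xist* only than in the 202 with Y-linked RNA only, as did 49.97% of all genes tested for size. In iCKO 8 of the 10 did, against 52.1% of all. The sum of the 9 genes without *Jun* was 0.999 against 0.593 UMIs per 10000 in iCON and 0.515 against 0.381 in iCKO (log2 ratio 0.39, interval 0.083 to 0.73). The following values are for iCON. *Fos* stood at 0.0873 against 0.0357 UMIs per 10000, *Egr1* at 0.193 against 0.115, and *Npas4* at 0.0374 against 0.00332. *Jun* was about level, at 2.35 against 2.36. Of the 8 genes tested for size, 5 lay at or above a log2 ratio of 0.5 (*Fos*, *Egr1*, *Junb*, *Ier2* and *Dusp1*), where 2.68% of all genes did, and 0 at or below -0.5, where 0.61% did. In iCKO, with 319 and 82 such cells, 2 of 8 lay at or above 0.5 (*Fos* and *Egr1*, 2.38% of all genes) and 0 at or below -0.5 (2.3%). *Jun* was lower in *Xist* cells there, at 1.92 against 2.42, and *Atf3* stood at 0.112 against 0.128, within counting error. *Ier2* was about level, at 0.0666 and 0.0661. In iCKO the *Xist* cells had a median of 24.5 UMIs of myelin genes per 10000 and the Y-linked ones 0.308. In iCON their median *Calb2* was 18.8 and 34.2. Their part in the differences was not tested. Cells with *Xist* and cells with Y-linked RNA come from different animals, so sex and animal cannot be told apart.

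Related genes were read from lists of pathway members. Of 44 other early-response genes 40 are listed and 27 were tested for size. Of these 27, 2 lay at or below -0.5, *Btg2* (-0.64) and *Btg1* (-0.59), both genes of growth arrest, and 0 lay at or above 0.5, with a median of -0.14. *Nr4a1*, a nuclear receptor of the early response, had 48 UMIs in iCON and 10 in iCKO. It was found in 6.49% of iCON and 1.72% of iCKO cells, so it was tested only through iCON, where it was high. *Egr2* had means of 0.113 and 0.0862 and did not differ beyond counting error, while *Mcl1*, *Trib1* and *Cebpb* were higher in iCKO. Counting intervals lay wholly below 0 for 10 of the 27 and wholly above 0 for these 3, against 24.6% and 18.5% of all genes. *Nr4a1* is among the 10, and its place there was not independent of the rule for testing. Some others of the 27 also met that rule only through iCON. Of 11 genes that follow activity later, 5 were tested. Of these, *Scg2* (-0.96) and *Nrn1* (-0.66) lay at or below -0.5, a line that 2.88% of all genes passed. *Scg2* was found in 11.9% of iCON and 2.70% of iCKO cells. It was thus tested only through iCON, where it was high. *Homer1* was higher in iCKO (0.14, interval 0.038 to 0.39). The median was -0.11 over the 5 and -0.04 over all genes. Of 20 upstream regulators such as *Creb1*, *Srf* and the MAP kinases, 19 were tested, 0 passed either line, and the median was 0.03. Their counting intervals lay wholly below 0 for 5 of the 19 and wholly above 0 for 3, against the same 24.6% and 18.5% of all genes.

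Of 12 heat shock and unfolded protein genes all were tested, 2 lay at or below -0.5 (*Hspb1* at -1.85 and *Hmox1* at -0.58), and the median was -0.00, where 2.88% of all genes passed that line. *Hspb1* had a UMI in 8.44% and 3.19% of cells, so it was tested only through iCON, where it was high. Their summed level was 82.6 UMIs per 10000 in iCON and 90.9 in iCKO, of which *Hspa8* (32.3 and 35.4) and *Hsp90aa1* (36.1 and 41.8) made up most. The inducible *Hspa1a* (-0.14) and *Hspa1b* (-0.20) were lower in iCKO, within counting error. Over cells, the heat shock sum correlated with the sum of the 9 genes at 0.04 in iCON and 0.05 in iCKO, and with *Jun* at 0.24 and 0.17. For *Atf3* it was 0.17 and 0.12, and for *Npas4* 0.17 and 0.02. Of 10 nerve injury genes 6 are listed, 4 were tested and 0 passed, with a median of 0.06. *Gap43* stood at -0.40, *Sox11* at 0.11 and *Stmn4* at 0.29, beside the -0.92 of *Atf3*. The interval of *Gap43* (-1.12 to -0.20) lay below 0 and that of *Stmn4* (0.20 to 0.38) above 0. *Npy*, which was not among the genes tested for size, had 101 UMIs in iCON and 6 in iCKO (interval -4.87 to -2.22). Myelin RNA correlated with the sum of the 9 at -0.02 and 0.11. What activity in the animal and dissociation each contributed was not tested.

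The genes whose level over cells was most like the sum of the 10, ranked by the lower of the correlations in the 2 libraries among 10255 genes, included *Cpne6* (0.37 in iCON and 0.33 in iCKO), *Rbfox3* (0.38 and 0.29), *Cst6* (0.42 and 0.28), *Dnm3*, *Zfand5*, *Espn*, *Faim2*, *Scx* and *Lypd1* (0.30 and 0.24). *Rbfox3* encodes the neuronal splicing factor NeuN and *Cpne6* a calcium-dependent membrane-binding protein. Since *Jun* makes up most of that sum, the ranking was repeated on the other 9, a choice made after the data were seen. It gave *Ywhah* (0.34 and 0.29), *Rbfox3*, *Uchl1*, *Ppp3ca*, a catalytic subunit of calcineurin (0.26 and 0.26), *Cpne6*, *Ostf1*, *Faim2*, *Slc17a6*, *Ncald* and *Pou4f1*. *Rbfox3*, *Cpne6* and *Faim2* stand in both lists.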

How the data were processed

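Per the labels' protocols, the assay was version v3 of the 10x Genomics 3′ kit, and the submitters' processing notes name Cell Ranger, Seurat and mm10 with no versions. Expression values were deposited as a natural log, ln(1 + CPM), a unit settled from the values themselves. Of the nonzero linear values, 100% lie within 1e-06 of whole UMIs, which were recovered. The other deposited table, with a value of another kind (a text label), gives each barcode's library. No barcode is repeated. Filters on cells are not given in the sources used here and doublets were not removed; leaving out the 5% of cells with the most UMIs is an alternative.

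A level is the mean over cells of UMIs per 10000. Ratios are log2 with a pseudocount of 0.05. Intervals (exact Poisson or Clopper-Pearson, 95%) cover counting error only, and those of ratios belong to summed UMIs without the pseudocount. For shares, cells were thinned to 20000 UMIs (8 iCON and 2 iCKO cells were too shallow). No test was run, with 1 library per group. Genes were compared for size when detected in at least 5% of the cells of a library. All 10 genes are named. Genes most like them were the 10 with the highest Spearman correlation with their sum, by the lower library, among genes in at least 10% of the cells of each. 1 of these is not reported here. List genes are given as counts with at most 6 names. The genes, lists and bins were chosen with earlier results of these data known. Alternatives were other pseudocounts, thinning depths, definitions of detection, and subsets and weights of cells. Steps were tested on simulated data. Python 3.11.15, numpy 2.4.6, pandas 2.3.3, scipy 1.17.1 and matplotlib 3.10.9 were used.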

Additional observations from a re-analysis of the deposited data

Results flagged for a closer look

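*Fos* differed between the libraries in opposite directions in a pair of neuron classes. The log2 ratio of iCKO over iCON was 0.99 among Lypd1-high cells and -0.59 among Calb2-high cells, and each counting interval excluded 0. The difference between the classes was not tested. The Lypd1-high value was 0.12 in low-myelin cells (interval -1.40 to 1.95), and the Calb2-high interval reached 0.0035 without the 5% of cells with the highest sums.

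The relation of *Fos* to *Lypd1* also had opposite signs. Cells with at least 10 *Lypd1* UMIs per 10000 stood at a log2 ratio of -0.60 to cells with under 1 in iCON and of 1.03 in iCKO. The difference between the libraries was not tested. Both results share the Lypd1-high cells and are not separate observations.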

How the results depend on the processing

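No paired analysis was possible because each group has 1 library. With 1 library per group, genotype, animal and library cannot be told apart. Thinned to 20000 UMIs, the summed log2 ratio was -0.32 and that of *Atf3* -0.90, against -0.34 and -0.92. Few UMIs limit the sparse genes, such as *Fosb* and *Npas4* with 5 each in iCKO. Leaving out the 5% of cells with the most UMIs was chosen after the data were seen. So was leaving out cells with at least 3 type II markers. Summing without *Jun* was planned for iCKO over iCON. For the *Calb2*, *Lypd1* and *Calb1* comparisons it was chosen after the data were seen.

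The summed log2 ratio of iCKO over iCON (-0.34) was -0.45 in *Xist* cells, -0.074 in Y-linked cells, -0.19 with equal class weights and -0.69 without *Jun*. The count of genes past 0.5 either way, over all 10 genes (2), was 5 with a pseudocount of 0.01, 0 with 0.5, 1 without the 5% of cells with the highest sums, 4 in *Xist* cells and 1 with equal weights. The share of all genes past 0.5 was not computed under these alternatives, so whether the counts stand out was not tested. The difference in the share of cells with at least 3 genes (-9.59 points) was -19.9 without thinning, -5.62 when thinned to 10000 UMIs, and, with intervals that include 0, -2.54 when 2 UMIs were required and -2.62 for at least 5 genes. Of single genes, *Fosb* turned to 0.038 in low-myelin cells and *Jun* to 0.037 in Y-linked cells, while *Fos* (-0.04), within counting error, stood at 0.11 in high-myelin cells and 0.23 with equal weights, and *Dusp1* (-0.17) at 0.42 with equal weights. *Arc*, at 0.00, took either sign (-0.32 to 0.15).

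For *Calb2*, high against low, iCON (-0.26) gave 0.014 in *Xist* cells, -0.60 in Y-linked cells, -0.40 without type II cells and -0.72 without *Jun*. The iCKO value (-0.63) was -0.41 without the highest sums and -1.04 without *Jun*. For *Lypd1*, iCON (0.29) gave 0.46 with bins of equal cell number, 0.36 without the highest sums, 0.16 in *Xist* and 0.42 in Y-linked cells, 0.69 at low and 0.17 at high myelin, and 0.21 without type II cells. The iCKO value (0.49) was 0.33 without the highest sums, 0.70 in Y-linked cells, 0.16 at low and 0.66 at high myelin, and 1.04 without *Jun*. For *Calb1*, iCON (0.20) gave 0.30 with such bins, 0.073 without the highest sums, 0.35 in *Xist* cells and 0.38 without *Jun*, and iCKO (-0.09) gave -0.28 in Y-linked cells. The cause of these shifts was not tested.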
